A study of Rattus norvegicus with 4 samples.

Results

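Membrane transporters and pumps carry sugars, amino acids, ions, drugs and metals across cell membranes, and 57 genes of this kind were measured among the 958 named genes of the arrays. They were taken by gene symbol: all solute carriers of the Slc and Slco families, ABC transporters (Abca to Abcg), P-type ATPases of the Atp1, Atp2, Atp4 and Atp7 groups and aquaporins. The hepatocyte bile acid and organic anion transporters Slc10a1, Slco1a4, Abcc2 and Abcc4 were left out and serve as a comparison. The rule uses symbols and no measured value, though it was written with earlier results of these data known. The 57 genes were represented by 108 spots, 38 genes by 1 spot each and 19 genes by between 2 and 5.

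The RNA came from the right lateral liver lobe of male Sprague-Dawley rats of 250 to 300 g, killed 12 h after an intraperitoneal injection. One group received 75 mg/kg of alpha-naphthylisothiocyanate (ANIT), a toxicant of bile duct cells that causes cholestasis, in olive oil at 7.5 mg/mL, and the control group received the oil alone. RNA of 3 rats was mixed within each treatment, and both mixtures were hybridised together on 4 spotted cDNA arrays. ANIT RNA was labelled with Cy5 on arrays 1 and 3 and with Cy3 on arrays 2 and 4. The labels do not say that the arrays held separate mixtures, so every p-value measures the spread between hybridisations, which may be technical, and n = 4 counts arrays and not animals. Precision is limited by having only 4 arrays. Whole liver was used, so a change in the share of a cell type and a change of RNA per cell cannot be told apart.

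Hepatocytes take up bile acids, drugs, sugars and amino acids from blood across the sinusoidal membrane and export bile acids and conjugates into bile by ATP-driven pumps. Solute carriers move their substrates down a gradient or coupled to an ion, ABC transporters and P-type ATPases spend ATP, and aquaporins are water channels. Many genes of these families are best known from kidney or brain, and the array carried several of them.

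The deposited values, 1 per spot and array, are signed numbers that were read here as log ratios. Neither the base of the logarithm nor the numerator is given in the sources used here, so sizes are in log units and sides are given as positive or negative, relative to the median of the gene spots on each array. Each gene gave 2 quantities in a single limma fit over all 1174 features. The mean ratio is the average over both dye orientations, and it compares the RNA mixtures if every array has the same treatment in the numerator. The orientation component is the value with ANIT in Cy5 minus the value with ANIT in Cy3, divided by 2, and it compares the mixtures if every array instead has the same dye in the numerator. The first reading leads below, as an assumption, and the second is given beside it. If ANIT was the numerator, a positive mean ratio means more transcript after ANIT, and if olive oil was, less.

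None of the 57 transporter and pump genes passed an adjusted p of 0.05 in the mean ratio, against 3.92% of all features (46 of 1174). At an unadjusted p under 0.05 there were 2 genes, Slc35a1 and Slc28a2, against 16.9% of features (198). The genes were split between the sides, 31 positive and 26 negative. Their median was 0.0088 log units, beside 0.0042 for all features, and the size of the mean ratio, sign left aside, had a median of 0.037, beside 0.048. The smallest adjusted p of any member was 0.0891. Standard errors ran from 0.039 to 0.075 log units with a median of 0.044. The 95% interval of the mean ratio lay inside ±0.2 for 52 genes and inside ±0.3 for all 57, with -0.29 the lowest bound and 0.20 the highest. As a fold, the lowest bound is 1.22 for base 2, 1.33 for natural and 1.94 for base 10 logarithms.

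The position of 0 decides this count. Without centring, the same fit put all 57 genes past the threshold on the negative side, between -0.38 and -0.13 log units, as it did 90.0% of all features. The median was -0.21 for the transporter genes and also -0.21 for all features. Control positions 89 to 91 held 48 spots over the 16 print blocks. As deposited, their medians were no farther than 0.011 from 0 on any array, so the deposited 0 is the level of these spots. What was spotted there is unknown. Other control positions did not share this level. After centring, positions 89 to 91 had mean ratios of 0.212 to 0.222, and positions 108 to 110 of 0.109 to 0.117. Positions 102 to 107 and 111 to 116 had -0.029 to 0.035, near the median gene spot. A positive or negative side below therefore means above or below the typical spot. Sides of genes this close to 0 also moved with the print block. With each block centred on its own median, Slc1a1, Slc2a1 and Slc25a14, each at 0.080 below, stood at -0.0023, -0.0029 and -0.0021. Each of these genes had 1 spot, all in block 8, so they share the same block median.

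**Figure D1:**
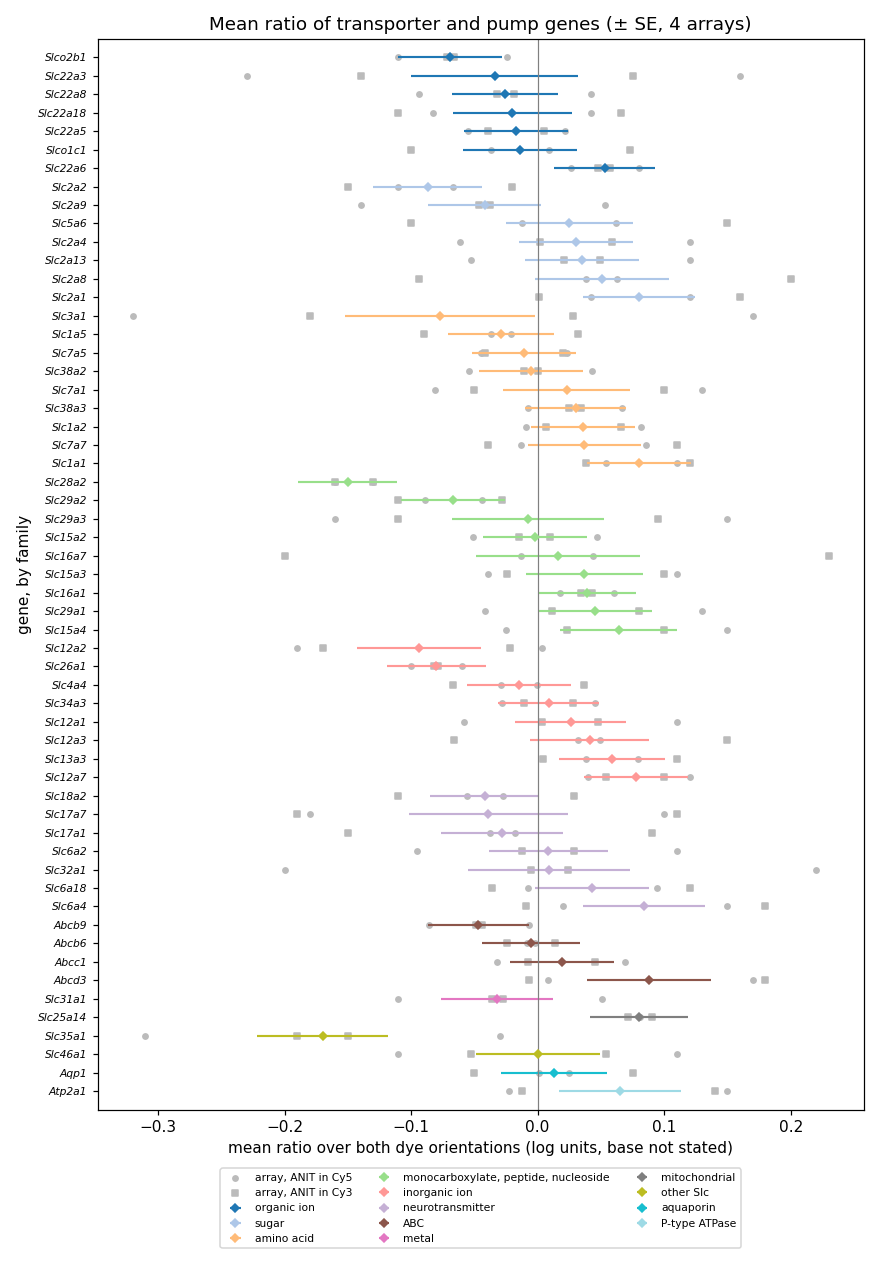
Mean ratio over both dye orientations (x axis, log units) of each of the 57 genes (y axis, by family), with coloured diamonds for the mean, bars for the SE from limma (n = 4 arrays) and grey points for the arrays after removal of the gene's orientation effect (circles with ANIT in Cy5, squares with ANIT in Cy3). The means lie between -0.17 and 0.088, and those of Slc35a1 and Slc28a2 lie farthest from 0.

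Slc35a1, which carries CMP-sialic acid into the Golgi for the sialylation of glycoproteins, had the lowest mean ratio. Its centred values were -0.22, -0.0016, -0.50 and 0.039 on arrays 1 to 4. The arrays with ANIT in Cy5 were thus clearly below the median gene spot and the other 2 were near it. The mean ratio was -0.17 ± 0.052 (SE, n = 4, adjusted p = 0.139 in limma), a fold of 1.12, 1.18 or 1.48 for base 2, natural or base 10 logarithms. Without array 1 it was -0.24 and passed (adjusted p = 0.0391), and without array 3 it was -0.10 (adjusted p = 0.533). With 3 arrays, the single array of an orientation is assumed to vary like the others.

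Slc28a2, the sodium-coupled carrier of purine nucleosides, was next, with centred values of 0.27, -0.57, 0.31 and -0.59. Arrays of the same orientation differed little, and the negative values were larger than the positive ones. The mean ratio was -0.15 ± 0.039 (adjusted p = 0.0891), and it stayed between -0.16 and -0.14 when any 1 array was left out, without passing. Slc35a1 and Slc28a2 were measured by 1 spot each. The remaining nucleoside carriers, which exchange nucleosides without sodium, were Slc29a2 at -0.067, Slc29a3 at -0.0077 and Slc29a1 at 0.045, so the 4 nucleoside genes did not share a side.

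The other members of that mixed family carry monocarboxylates and peptides. Slc16a1, the main carrier of lactate and pyruvate, stood at 0.039 over 5 spots, and Slc16a7, a related lactate carrier, at 0.016. Slc16a7 had 0.39 on array 2 and -0.033 on array 4, arrays of the same orientation, the widest gap between these arrays among the 57 genes. Of the peptide carriers, Slc15a4, a lysosomal carrier of histidine and peptides, was the highest of the family at 0.064 ± 0.046 (adjusted p = 0.522; 0.019 to 0.11 with 1 array left out), with Slc15a3 at 0.037 and Slc15a2 at -0.0022. In all, 5 of these 9 genes were positive and 4 negative.

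Among 7 sugar carriers, Slc2a2, the glucose carrier through which hepatocytes release and take up glucose, was the lowest. Its values were 0.45, -0.71, 0.49 and -0.57, and the mean ratio was -0.087 ± 0.043 (adjusted p = 0.34). It moved between -0.12 and -0.053 when 1 array was left out, and with print blocks centred it was -0.17 (adjusted p = 0.0623 in limma). Slc2a1, the widespread glucose carrier of low abundance in hepatocytes, was the highest, with -0.70, 0.74, -0.62 and 0.90 and a mean ratio of 0.080 ± 0.044 (adjusted p = 0.403), between 0.040 and 0.12 with 1 array left out. The signs of these carriers on each array were thus opposite, and so were their mean ratios, neither past the threshold. Both spots lay in block 8, and with print blocks centred Slc2a1 stood at -0.0029, so both mean ratios were then negative. Slc2a8, an intracellular sugar carrier, stood at 0.051, Slc2a13, a myo-inositol carrier, at 0.035, and Slc2a4, the insulin-regulated carrier of muscle and fat, at 0.030. Slc2a9, a urate carrier, stood at -0.042. Slc5a6, which carries biotin and pantothenate but falls here by its symbol, stood at 0.025.

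The 9 amino acid carriers had a median of 0.023. Slc1a1, a glutamate carrier, was the highest, with values of -0.42, 0.52, -0.37 and 0.60 and a mean ratio of 0.080 ± 0.041 (adjusted p = 0.355). Slc3a1, the subunit that brings cystine and basic amino acid carriers to the membrane, was the lowest at -0.077 ± 0.075 (adjusted p = 0.647). Its values were -0.44, 0.15, 0.041 and -0.058, so arrays 1 and 3 disagreed in sign, and it had the largest SE of the 57 genes. Without array 1 it stood at 0.044 and without array 3 at -0.20, so single arrays decide its side. Slc38a3, the glutamine carrier of hepatocytes, stood at 0.030 over 5 spots, and Slc38a2, the widespread carrier of small neutral amino acids, at -0.0055 over 5. The cationic amino acid carrier Slc7a1 stood at 0.023, its relatives Slc7a7 at 0.037 and Slc7a5 at -0.011, the glutamate carrier Slc1a2 at 0.036 and the neutral amino acid carrier Slc1a5 at -0.029.

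Of 7 organic ion carriers, 6 were negative, between -0.069 and -0.014, against 556 of 1174 features, and none of the 7 passed. Of the negative genes with several spots, Slco2b1, Slc22a5 and Slco1c1 had spots on both sides, and the spots of Slc22a18 were all negative. Slco2b1, an organic anion uptake carrier found on hepatocytes, was the lowest, with 0.24, -0.43, 0.33 and -0.42 and a mean ratio of -0.069 ± 0.041 (adjusted p = 0.424). Slc22a6, an organic anion carrier of the kidney, was the highest at 0.053 ± 0.040 (adjusted p = 0.54). Slc22a3, an organic cation carrier, stood at -0.034, and Slc22a8, another renal organic anion carrier, at -0.026. Slc22a18 stood at -0.020, Slc22a5, the carnitine carrier, at -0.017, and Slco1c1, a thyroid hormone carrier of brain vessels, at -0.014. The left-out hepatocyte carriers were on both sides as well. Slc10a1, the sodium-coupled bile acid uptake carrier, stood at 0.060 and Slco1a4, an organic anion uptake carrier, at 0.015. Abcc2, the canalicular conjugate pump, stood at -0.059 and Abcc4, a basolateral export pump, at -0.041, with 0 of the 4 past the threshold.

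Among 8 carriers of inorganic ions and dicarboxylates, Slc12a2, the sodium, potassium and chloride cotransporter of secretory cells, was the lowest. Its values were -0.12, -0.045, -0.31 and 0.10, with a mean ratio of -0.094 ± 0.049 (adjusted p = 0.362), moving between -0.14 and -0.045 when 1 array was left out. Slc12a7, a potassium and chloride cotransporter, was the highest, with 0.33, -0.19, 0.40 and -0.24 and a mean ratio of 0.078 ± 0.041 (adjusted p = 0.364). Slc26a1, a sulfate and oxalate exchanger of liver and kidney, stood at -0.080 ± 0.039 (adjusted p = 0.34). It stayed between -0.090 and -0.070 when any 1 array was left out. The dicarboxylate carrier Slc13a3 stood at 0.059 over 5 spots, and the renal salt cotransporters Slc12a3 and Slc12a1 at 0.041 and 0.026. The renal phosphate carrier Slc34a3 stood at 0.0088 and the bicarbonate cotransporter Slc4a4 at -0.015.

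The 7 neurotransmitter carriers had a median of 0.0084. Slc6a4, the serotonin carrier, was the highest at 0.084 ± 0.048 (adjusted p = 0.409) and Slc18a2, which loads monoamines into vesicles, the lowest at -0.042 ± 0.043 (adjusted p = 0.668). Leaving out 1 array moved Slc6a4 between 0.037 and 0.13 and Slc18a2 between -0.077 and -0.0062. Slc17a7, which loads glutamate into vesicles, stood at -0.039 and Slc17a1, a renal and hepatic anion carrier of that group, at -0.028. Slc6a18 stood at 0.043, and Slc32a1, the vesicular GABA carrier, and the noradrenaline carrier Slc6a2 at 0.0093 and 0.0084.

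Abcd3, a peroxisomal membrane transporter of branched and long fatty acids, had the highest mean ratio of all 57 genes. Its values were 0.54, -0.19, 0.38 and -0.38. Arrays 2 and 4 differed by 0.19, and the mean ratio was 0.088 ± 0.049 (adjusted p = 0.403), moving between 0.041 and 0.14 when 1 array was left out. Of the other ABC transporters, Abcb9, a lysosomal peptide transporter, stood at -0.047, Abcb6, a porphyrin transporter, at -0.0053 and Abcc1, an export pump of conjugates, at 0.019. The copper uptake carrier Slc31a1 stood at -0.032 over 4 spots. Slc25a14, a mitochondrial carrier of the uncoupling protein group, stood at 0.080 ± 0.039 (adjusted p = 0.34). The folate carrier Slc46a1 stood at 0.00065, the water channel Aqp1 at 0.013 and Atp2a1, the calcium pump of muscle sarcoplasmic reticulum, at 0.065 ± 0.048 (adjusted p = 0.532), between 0.021 and 0.11 with 1 array left out. Atp2a1 was the only P-type ATPase, Aqp1 the only aquaporin and Slc31a1 the only metal carrier among the named spots.

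Other membrane and regulator genes were read on the same scale. Of 17 genes taken as ion channels by the start of their symbols, which may take in related genes such as Grina, 0 passed. Their median was 0.039, with a range from -0.052 for Gabrd to 0.087 for Chrna4. Of a chosen list of 15 nuclear receptors and related regulators of transporter genes, which does not hold every such receptor on the arrays, 6 were measured, and Nr0b2, a repressor of bile acid genes, passed at 0.24 ± 0.041 (adjusted p = 0.0132). The lowest of these 6 was Nr3c1, the glucocorticoid receptor, at -0.10 (adjusted p = 0.264), and the bile acid receptor Nr1h4 stood at -0.045. Neither of 2 mitochondrial ATP synthase genes passed (Atp5pb at 0.059, the inhibitor Atp5if1 at -0.017), nor did the transporter regulators Sgk1 at -0.060 and Ezr at -0.038. Of 8 measured hepatocyte markers, 3 passed, against 3.92% of all features. All 3 were positive: Cyp1a2 at 0.62, Ttr at 0.23 and Tf at 0.19. The 8 ran from -0.10 to 0.62 with a median of 0.13. Of the markers of other liver cells, 0 passed among 2 of bile duct (-0.065 and -0.010), 4 of endothelial and stellate cells or fibroblasts (-0.10 to -0.024), 1 of myeloid and lymphoid cells (Fcgr2b at -0.12) and 1 of blood (Pf4 at 0.0098). The part of these markers in the transporter values was not tested.

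The values on single arrays were mirrored between the dye orientations. For 52 of the 57 genes, arrays 1 and 3 lay on one side of 0 and arrays 2 and 4 on the other, as for 992 of 1174 features. No member had the same sign on all 4 arrays, against 2.81% of features (33). In the orientation component, 55 of 57 genes passed, against 86.5% of features. On the positive side these were 19 genes, against 40.6% of features, and on the negative side 36, against 45.8%. These sides are relative to the typical spot and depend on the centring. Slc38a2 and Slc3a1 did not pass. The orientation component had an SD over genes of 0.46 log units for the members and 0.45 for all features, with medians of -0.20 and -0.041. Arrays of the same orientation repeated each other closely, with a median gap of 0.091 between arrays 1 and 3 and of 0.081 between arrays 2 and 4.

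**Figure D2:**
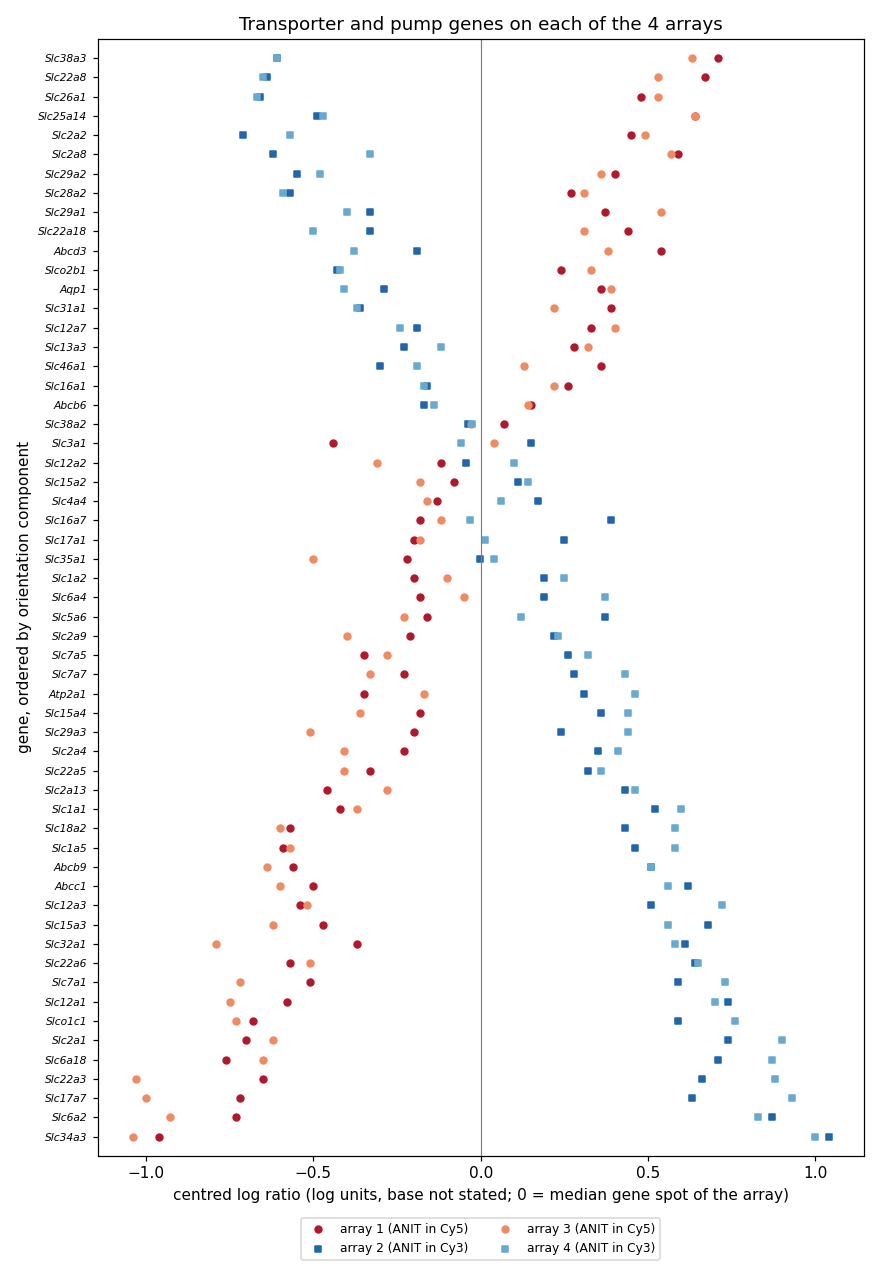
Centred log ratio of each of the 57 genes (y axis, ordered by the orientation component) on each array (x axis, log units), red and orange circles for arrays with ANIT in Cy5 and blue squares for those with ANIT in Cy3. The orientations mirror each other, from Slc34a3 near -1 and 1 at the bottom to Slc38a3 near 0.7 and -0.6 at the top.

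The highest orientation component belonged to Slc38a3, the hepatocyte glutamine carrier, at 0.64 ± 0.040, with values of 0.71, -0.61, 0.63 and -0.61. Slc22a8, the renal organic anion carrier, followed at 0.62 ± 0.042 (0.67, -0.64, 0.53 and -0.65 by array) and Slc26a1 at 0.59 ± 0.039 (0.48, -0.66, 0.53 and -0.67). Each of these 3 differed from the next by less than 1 SE. Slc25a14 stood at 0.56, Slc2a2, the hepatocyte glucose carrier, at 0.55, and Slc2a8 at 0.53.

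At the other end, Slc34a3, the renal phosphate carrier, was the lowest at -1.01 ± 0.040, with values of -0.96, 1.04, -1.04 and 1.00. The noradrenaline carrier Slc6a2 stood at -0.84 ± 0.047 (-0.73, 0.87, -0.93 and 0.83) and the vesicular glutamate carrier Slc17a7 at -0.82 ± 0.063 (-0.72, 0.63, -1.0 and 0.93), which differ by less than 1 SE. Slc22a3 at -0.80, the renal amino acid carrier Slc6a18 at -0.75 and Slc2a1 at -0.74 followed. All 7 genes placed by symbol with the neurotransmitter carriers passed on the negative side, with a median of -0.59, against 45.8% of all features on that side. So did 15 of the 17 genes taken by symbol as ion channels, with a median of -0.62. These are averages over spots, and the 3 spots of Slc6a4 lay on both sides, from -0.39 to 0.14. The 4 left-out hepatocyte carriers all passed on the positive side, where 40.6% of features did, from 0.25 for Slco1a4 to 0.56 for Abcc2.

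Within the families that follow both sides were present, while the neurotransmitter carriers ran only from -0.84 to -0.16. The sugar carriers ran from -0.74 for Slc2a1 to 0.55 for Slc2a2, the amino acid carriers from -0.64 for Slc7a1 to 0.64 for Slc38a3, the organic ion carriers from -0.80 for Slc22a3 to 0.62 for Slc22a8, and the inorganic ion carriers from -1.01 for Slc34a3 to 0.59 for Slc26a1. The nucleoside, monocarboxylate and peptide carriers ran from -0.58 for Slc15a3 to 0.45 for Slc29a2, and the ABC transporters from -0.57 for Abcc1 to 0.37 for Abcd3.

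Liver markers and control spots gave values for the same quantity. Of the 8 measured hepatocyte markers, 6 passed on the positive side and 0 on the negative, against 40.6% and 45.8% of all features. Their median was 0.35, with a range from 0.022 to 0.57. Cyp2e1 and Pck1, both at 0.022, were the ones that did not pass. The bile duct markers Cd24 and Spp1 stood at -0.68 and -0.75. The 18 control positions had medians between -0.93 and 0.68, and 6 of the positions lay between -0.93 and -0.91, next to Slc34a3. Levels in the liver were not part of the deposited values, so whether the orientation component follows the amount of transcript was not tested. As deposited, the medians over gene spots changed sign with the dye orientation, at -0.765, 0.3211, -0.7154 and 0.298 on arrays 1 to 4. Control position 111 stood at -1.648, 1.199, -1.717 and 1.217, position 108 at 0.038, -0.25, 0.047 and -0.25, and position 89 near 0 on every array. Which numerator the arrays have was not tested. If the arrays have the same dye in the numerator, the orientation component is instead the comparison of ANIT with olive oil. Relative to the typical spot, the fold for Slc34a3 would then be 2.01 with base 2, 2.74 with natural and 10.18 with base 10 logarithms. For Slc38a3, on the opposite side, it would be 1.56, 1.90 and 4.36.

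**Figure D3:**
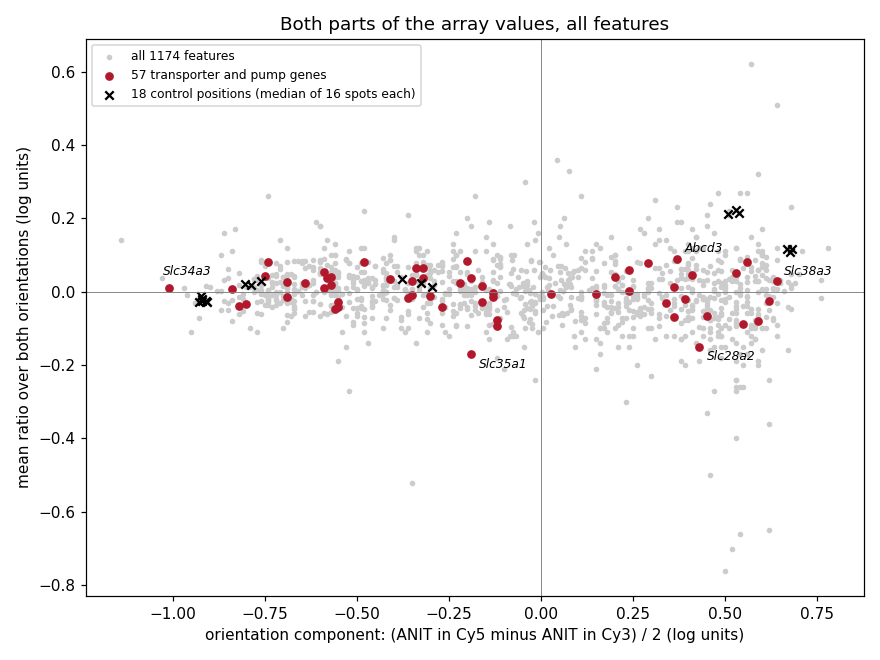
Orientation component (x axis, log units) and mean ratio (y axis, log units) of all 1174 features in grey, the 57 transporter and pump genes in red and the medians of 18 control positions as crosses. The red points span the x axis from -1.01 to 0.64 and keep to a narrow band from -0.17 to 0.088 on the y axis.

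Spots of the same gene often differed. Each spot carried its own cDNA clone, and 19 transporter genes had several, 70 spots in all. Within genes, the SD between spots in the mean ratio was 0.066 log units, beside 0.080 for all 340 named genes with several spots, and that in the orientation component was 0.358, beside 0.386. In 9 of the 19 genes the spots lay on both sides of 0 in the orientation component. The share of such genes among all named genes with several spots was not counted. Slc38a2 had the widest span, from -0.83 to 0.59, followed by Slc16a1 (-0.73 to 0.53), Slc7a5 (-0.71 to 0.45) and Slc2a4 (-0.83 to 0.30). In Slc16a1 a single spot at -0.73 stood apart from the other 4, which lay between 0.24 and 0.53. The 3 spots of Slc22a18 agreed best, between 0.38 and 0.41, and all 5 spots of Slc38a3 lay between 0.54 and 0.81.

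The mean ratio differed by more than 0.2 between spots in 2 genes. The spots of Slc38a2 ran from -0.22 to 0.13 and those of Slc2a4 from -0.086 to 0.15. With every spot on its own, 1 of 108 transporter spots passed, against 5.28% of all gene spots (87 of 1648). An unadjusted p under 0.05 was found for 10 transporter spots, and the share over all gene spots was not counted. The spot that passed was of Slc38a2, at position 74 of block 10. Its values were 0.27, -0.66, 0.32 and -0.79, with a mean ratio of -0.22 ± 0.047 (adjusted p = 0.0167 in limma over spots). Another Slc38a2 spot, at position 45 of block 12, had 0.72, -0.49, 0.70 and -0.43 and a mean ratio of 0.13 ± 0.045 (adjusted p = 0.149). The 5 spots thus disagreed in side, and the gene's mean ratio of -0.0055 lies between them. Of the 4 Slco2b1 spots, 2 had a mean ratio of -0.14 and -0.11 and the highest stood at 0.0085.

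**Figure D4:**
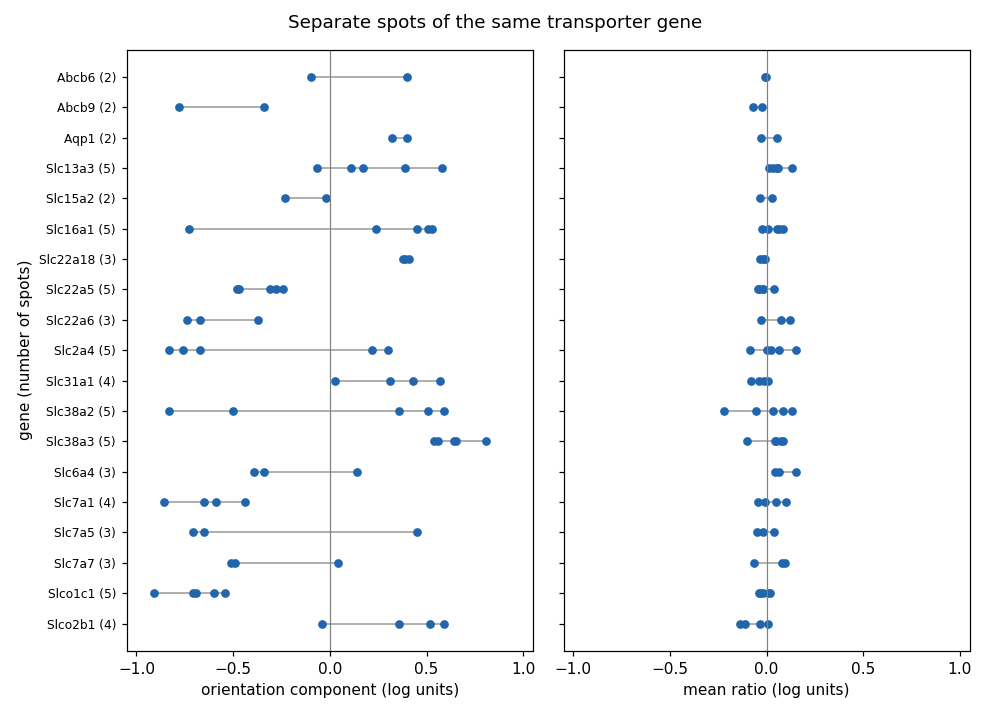
Orientation component (left, log units) and mean ratio (right, log units) of each spot of the 19 genes with several spots (y axis, number of spots in brackets), with lines joining the lowest and highest spot of a gene. Spots of Slc38a2, Slc16a1, Slc7a5 and Slc2a4 lie on both sides of 0 in the orientation component, while the mean ratios stay between -0.22 and 0.15.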

How the data were processed

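The authors deposited 1 value per spot and array for 4 two-colour arrays, as signed scores with 0 missing, which were read here as log ratios. The sources used here give no scanner, background correction, normalization or numerator. Spots numbered 1936, in 16 blocks. The 288 spots at 18 positions without annotation in any block were taken as control spots, which left 1648 gene spots. Of these, 1432 had 1 gene symbol in the platform annotation, 19 several and 197 none. All 57 member symbols matched the rat gene table. The median over gene spots was subtracted from each array and spots of a gene were averaged.

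Both quantities were fitted in limma 3.58.1 (R 4.3.3; lmFit and eBayes, 2 residual degrees of freedom, two-sided, Benjamini-Hochberg over 1174 features) with the mean and the dye orientation as terms, and tested on simulated data. Figures used matplotlib 3.10.9. Named members were those with an unadjusted p under 0.05, the highest and lowest of each of 12 families, those with spots over 0.2 apart and the 3 highest and lowest orientation components. The members and lists were chosen with earlier results of these data known. Values for other members were added for completeness. Alternatives were no orientation term, no centring, centring on all spots or on print blocks, equal spread, single spots, robust eBayes and each array left out. The sequences of the spotted cDNAs were not used here.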

Additional observations from a re-analysis of the deposited data

Results flagged for a closer look

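Slc38a2 was the 1 gene of 57 in which 1 array stood apart from the other 3 by Dixon's criterion for 4 values. Array 1 was at 0.069 and arrays 2 to 4 lay between -0.037 and -0.026. Chance alone would mark about 5% of groups of 4. The value averages 5 spots whose orientation components ran from -0.83 to 0.59. In 52 of the 57 genes the arrays formed opposite pairs by dye orientation, where a single array standing apart is hard to mark.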

How the results depend on the processing

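The count of 0 transporter genes past the threshold in the mean ratio held without an orientation term (where 0 of 1174 features passed and 5 had an unadjusted p under 0.05), with centring on all spots or on print blocks, with equal spread and with robust eBayes. It was 57 with values as deposited, 1 with every spot on its own (Slc38a2) and 0 to 1 when an array was left out (Slc35a1 without array 1). The count in the orientation component, both sides together, stayed between 50 and 56. This count does not show that the sides held. The centring subtracted medians of -0.765, 0.3211, -0.7154 and 0.298 from arrays 1 to 4, so without it every orientation component lies lower. Sides of that component without centring were not counted. The median mean ratio of the members was -0.21 as deposited, and between -0.015 and 0.021 when an array was left out. Each array held both mixtures, so ANIT and olive oil were compared within arrays, and no further pairing of arrays was used.

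As deposited, these named genes turned negative: Abcd3, Slc6a4 and Slc25a14 at -0.13, Slc12a7, Slc1a1 and Slc2a1 at -0.14, Atp2a1 and Slc15a4 at -0.15, Slc22a6 at -0.16, Slc2a4 at -0.18, Slc38a3 at -0.19, Aqp1 at -0.20, and Slc34a3, Slc46a1 and Slc6a2 at -0.21. With print blocks centred, sides changed for Slc17a7 at 0.011, Slc18a2 at 0.037, Slc1a1 at -0.0023, Slc25a14 at -0.0021, Slc2a1 at -0.0029, Slc31a1 at 0.00056, Slc38a2 at 0.0037 and Slc46a1 at -0.019. With equal spread Slc34a3 was at -0.021 and Slc6a2 at -0.016, with all spots as centre Slc46a1 was at -0.00026, and the Slc38a3 spot of smallest p stood at -0.10. When an array was left out, sides changed in Aqp1 (-0.018 to 0.044), Slc17a7 (-0.11 to 0.035), Slc22a8 (-0.060 to 0.0083), Slc2a4 (-0.015 to 0.076), Slc31a1 (-0.073 to 0.0095), Slc34a3 (-0.0094 to 0.027), Slc38a2 (-0.030 to 0.019), Slc3a1 (-0.20 to 0.044), Slc46a1 (-0.055 to 0.057) and Slc6a2 (-0.043 to 0.060). Why print blocks and arrays differed was not tested. Of 28 named genes, 13 kept their side in every setting other than the deposited values, taking only the single spot of smallest p. Of these, Slc22a6 and Slco2b1 each had a spot on the other side, at -0.031 and 0.0085. Signal over background was not part of the values.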

Other observations

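Adjacent spots annotated to the same gene did not always have like values. In block 11, the Slc16a1 spot at position 2 had centred values of 0.64, -0.48, 0.52 and -0.41 on arrays 1 to 4, and the Slc16a1 spot at position 3 beside it had -0.72, 0.78, -0.63 and 0.79. Their orientation components were 0.51 and -0.73, while their mean ratios, 0.066 and 0.054, were alike. In block 13, adjacent Slc13a3 spots at positions 38 and 39 had orientation components of -0.066 and 0.17 and mean ratios of 0.035 and 0.13. The clones behind these symbols were assigned by the platform annotation, and whether each matches its gene was not tested.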
